A study of Homo sapiens with 4 samples.

Results

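The genes described here are 10 genes of the Notch pathway: the receptors NOTCH1, NOTCH2 and NOTCH3, the ligands JAG1, JAG2 and DLL1, the fringe enzyme LFNG, and the transcriptional targets HES1, HEY1 and NRARP. They were chosen by symbol, and for each symbol the RefSeq transcript with the highest mean over all libraries was used. All 10 were found among the 19475 gene symbols of the deposited table. Expression was measured by mRNA sequencing in SKOV3 cells, a long-established line from a human ovarian carcinoma. There were 2 libraries of cells on tissue culture plastic (TCP), labelled day 0, and 2 libraries of tumor spheroids grown on plates coated with polymer X, labelled day 8. The labels describe medium with serum replacement, antibiotics and L-glutamine for all 4 libraries, while the study's methods describe maintenance in fetal bovine serum before spheroid culture and spheroids that were dissociated with an enzyme during the culture. Substrate, day and, possibly, medium changed together, so their parts in any difference cannot be told apart. The series describes the profiles as made in duplicate, whereas the study's methods give at least 3 independent replicates for its experiments in general. The labels do not say whether replicates 1 and 2 of a group were separate cultures, so whether the spread between them is technical or biological is not known.

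Notch receptors are single-pass membrane proteins that are activated when a ligand of the Jagged or Delta-like family on a neighbouring cell binds them. Cleavage by an ADAM protease and then by gamma-secretase frees the intracellular domain, which enters the nucleus, joins the DNA-binding protein RBPJ and a Mastermind coactivator, and switches on genes of the HES and HEY families and NRARP. The pathway depends on contact between cells and is studied in ovarian cancer for its links to proliferation, drug resistance and stem-like growth. The study placed a Notch reporter among those it used for polymer X spheroids. Its text describes a fluorescent signal for the STAT3 reporter and states no result for the Notch reporter. The comparison below asks how the transcripts of the pathway itself differed between the substrates.

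Values are FPKM, that is, tags scaled for transcript length and for the depth of the library, as deposited. The libraries had been scaled to 38404000 and 44914000 tags for TCP replicates 1 and 2 and to 40026000 and 40685000 tags for polymer X replicates 1 and 2. The 11964 genes that reached an FPKM of 1 in 2 or more libraries were compared with limma on the scale of log2(FPKM + 1). Changes on this scale are smaller than the change in FPKM for genes with a low FPKM. A gene is said to have risen or fallen on polymer X where the adjusted p from limma was under 0.05, and to have been called higher or lower where the log2 fold change was also at least 1 in size. The median standard error was 0.07. The first rule was met by 81.0% of all tested genes (37.4% rose and 43.6% fell), and the second by 20.2% (10.7% higher and 9.45% lower).

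Of the 10 genes, 8 were tested, and each of these had an FPKM of at least 1 in all 4 libraries. HES1 fell most and LFNG came next, and these 2 were called lower. NOTCH1, NOTCH2 and JAG1 fell by less, so that 5 genes fell in all. JAG2, HEY1 and NRARP rose, and limma called 0 of the 8 higher, although 3 had a positive change at an unadjusted p under 0.05. The remaining 2 genes, NOTCH3 and DLL1, lay under an FPKM of 1 in every library and did not enter this test. All 8 tested genes had TCP and polymer X values that did not overlap, as did 90.4% of all tested genes. Their median log2 fold change was -0.52, against -0.06 over all tested genes, and the share called in either direction was 25.0%, against 20.2%. With no filter, where NOTCH3 and DLL1 enter, the median of the 10 genes was -0.24. No direction among the 8 genes changed under quantile normalization or median scaling. The median of all tested genes was -0.05 and -0.02 with these scalings.

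**Figure D1:**
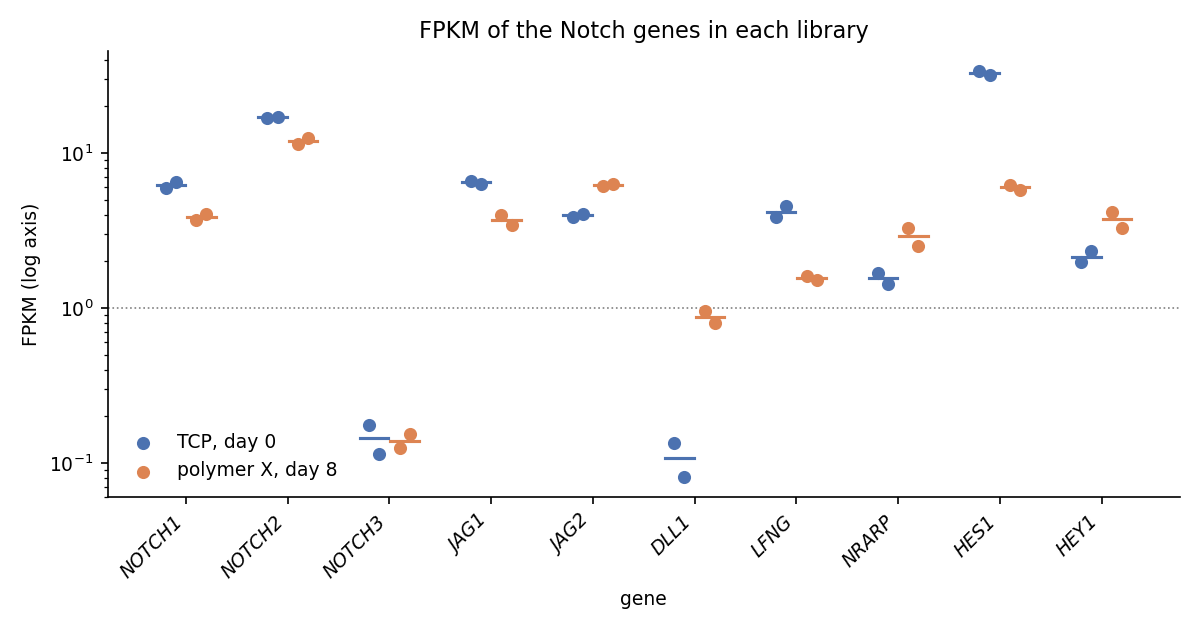
FPKM of the 10 Notch genes in each library on a log axis, with TCP in blue and polymer X in orange; horizontal bars mark the mean of the 2 libraries of a group and the dotted line an FPKM of 1. HES1 lies between 31.888 and 33.878 on TCP and between 5.811 and 6.233 on polymer X, while NOTCH3 and DLL1 lie below the dotted line in all 4 libraries.

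The order of the FPKM levels differed between the groups. On TCP the mean FPKM was highest for HES1 (32.9) and then for NOTCH2 (17.0). JAG1 (6.46) and NOTCH1 (6.22) followed with ranges that overlapped, as did LFNG (4.19) and JAG2 (3.96). HEY1 (2.15) and NRARP (1.55) were lower, and NOTCH3 (0.144) and DLL1 (0.108) were lowest, again with overlapping ranges. On polymer X the highest mean FPKM was that of NOTCH2 (12.0). JAG2 (6.22) and HES1 (6.02) came next and their ranges overlapped. NOTCH1 (3.87), HEY1 (3.74) and JAG1 (3.71) could not be separated, since each overlapped its neighbour in the order. NRARP (2.90), LFNG (1.57), DLL1 (0.880) and NOTCH3 (0.139) completed it. HES1 on TCP had a mean FPKM above that of 84.1% of the tested genes, and on polymer X it lay above 38.4%. No other of the 10 genes moved as far in this ranking.

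**Figure D2:**
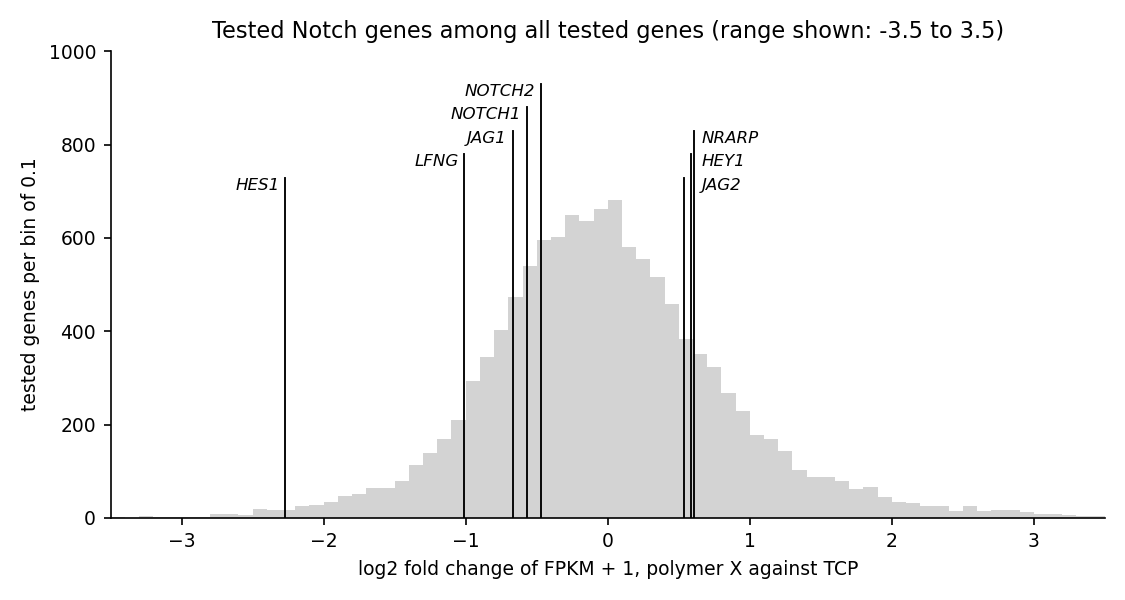
Distribution of the log2 fold change of FPKM + 1, polymer X against TCP, over the 11964 tested genes (bars, genes per bin), with the 8 tested Notch genes marked by lines. HES1, at -2.27, lies in the lower tail, LFNG lies at -1.01, and the other marked genes lie between -0.67 and 0.61.

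Among the receptors, which receive the signal at the cell surface, NOTCH2 had the highest FPKM. NOTCH2 (NM_024408, chr1:120454176-120612317, hg19, minus strand) had an FPKM of 16.797 and 17.176 in TCP replicates 1 and 2 and of 11.374 and 12.555 in polymer X replicates 1 and 2. Both polymer X libraries were below both TCP libraries, with no overlap. The mean FPKM went from 17.0 ± 0.268 (SD, n = 2) to 12.0 ± 0.835 (SD, n = 2), which is 0.704 times the TCP level, with a log2 fold change of -0.47 (standard error, SE, 0.07, limma adjusted p = 1.1e-04). With its transcripts summed, the log2 fold change of NOTCH2 was -0.78. The values of NM_024408 rest on 5204 to 8818 tags per library.

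NOTCH1 (NM_017617, chr9:139388885-139440238, hg19, minus strand) is a receptor of the same structure, with roles in many epithelia and in T cells. Its FPKM was 5.966 and 6.465 on TCP and 3.705 and 4.033 on polymer X. The polymer X values were the lower ones and did not reach the TCP range. NOTCH1 fell with a log2 fold change of -0.57 (SE 0.08, 95% interval -0.74 to -0.40, limma adjusted p = 7.9e-05), and its mean FPKM on polymer X was 0.622 times that on TCP. NOTCH3, the receptor best known from vascular smooth muscle, had an FPKM of 0.175 and 0.114 on TCP and of 0.124 and 0.153 on polymer X, from 40 to 54 tags per library. The NOTCH3 ranges overlapped. The ratio of its tag rates, polymer X over TCP, was 0.978 with an exact 95% counting interval of 0.725 to 1.32, so that no difference was detectable at this depth. With no filter on low values, the log2 fold change of NOTCH3 was -0.01 (SE 0.04, limma adjusted p = 0.88). Intervals of this kind cover counting error only and are too narrow where mates of a read pair were counted as separate tags. NOTCH4, the remaining paralog, was listed at 0 in all 4 libraries, with the row used placed on an alternate haplotype of chromosome 6.

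The summed FPKM of the 4 receptors was 22.9 and 23.8 on TCP and 15.2 and 16.7 on polymer X, a ratio of 0.684 between the means. The composition moved little beside this fall. NOTCH2 held 73.2% and 72.3% of the sum on TCP and 74.8% and 75.0% on polymer X, and NOTCH1 held 26.0% and 27.2% against 24.4% and 24.1%. The ratio of NOTCH2 to NOTCH1 FPKM was 2.82 and 2.66 on TCP and 3.07 and 3.11 on polymer X. With all transcripts of a gene summed, the difference in the NOTCH2 share changed sign, from 2.14 to -1.49 percentage points, because the second NOTCH2 transcript then enters the sum.

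That second transcript, NM_001200001 (chr1:120477736-120612317), shares the 5′ end of NOTCH2 and stops well before its 3′ end, with a length of 4287 bases against 11430. Its FPKM was 14.365 and 14.505 on TCP and 5.361 and 6.485 on polymer X. The fall was larger than for the full-length transcript, with a log2 fold change of -1.16 against -0.47. A difference in this direction was common in these libraries. In 315 pairs of transcripts, from 301 genes, a short transcript shared the 5′ end of a longer transcript. The 3′ ends of a pair lay at least 5000 bases apart, and which of them lay further along the gene was not fixed. The log2 fold change of the short transcript was below that of the long one in 288 pairs, or 91.4%. The median difference was -0.34 (quartiles -0.49 and -0.16), and 11.4% of the pairs, NOTCH2 included, had a difference at or below the -0.69 of NOTCH2. In single libraries, the median log2 ratio of short over long transcripts was -0.04 in each TCP replicate and -0.40 and -0.37 in polymer X replicates 1 and 2. For NOTCH2 the same log2 ratio was -0.21 and -0.23 on TCP and -0.96 and -0.86 on polymer X. Short transcripts that share the 5′ end of a longer one thus mostly had relatively lower FPKM in both polymer X libraries. Coverage along transcripts is also a measure of RNA quality, and its part in the values of NOTCH2 and the other genes was not tested. By transcript length, median log2 fold changes were -0.02 over the 602 tested genes longer than 8000 bases, which include NOTCH1 and NOTCH2, -0.01 over the 2292 genes of 4000 to 6000 bases, which include JAG1 and JAG2, and -0.10 over the 2620 genes of 1000 to 2000 bases, which include HES1. The lowest median of the length classes was -0.27, over the 815 genes of up to 1000 bases, which include none of the Notch genes.

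**Figure D3:**
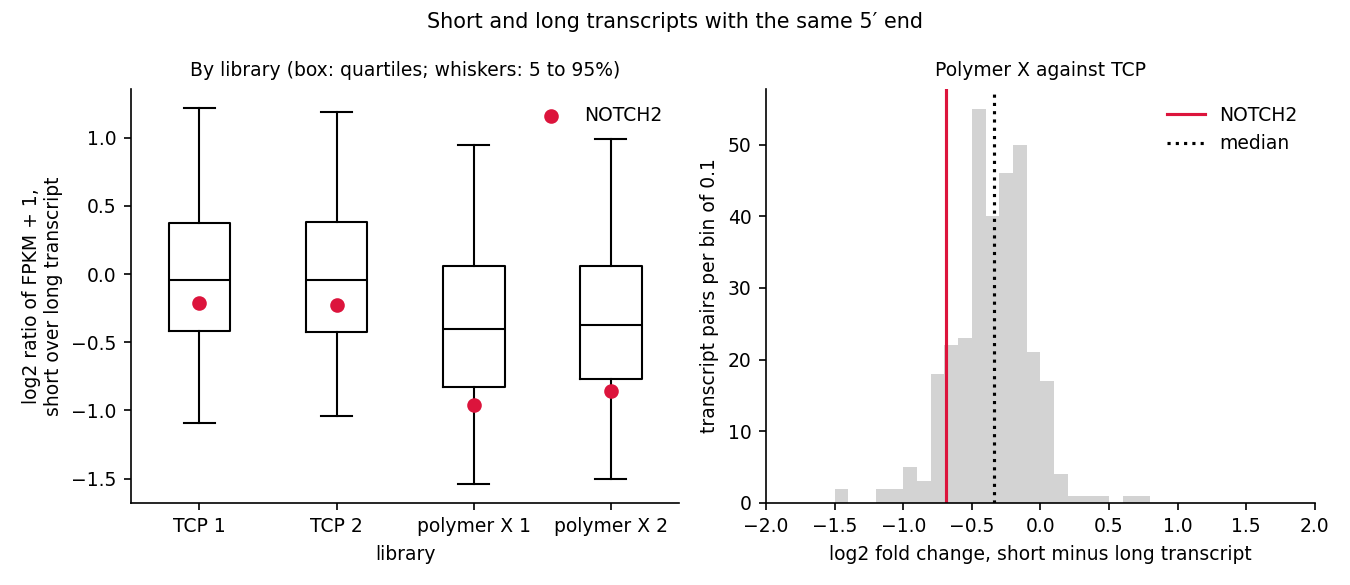
Left, log2 ratio of FPKM + 1 of the short over the long transcript in each library for 315 pairs of transcripts from 301 genes, each pair sharing the 5′ end (boxes, quartiles and median; whiskers, 5th to 95th percentile), with NOTCH2 as red points; right, the difference of their log2 fold changes, polymer X against TCP. The median ratio is -0.04 in both TCP libraries and -0.40 and -0.37 in the polymer X libraries, and NOTCH2 lies at -0.69 in the right panel.

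NOTCH2NL, which carries near-identical copies of the first NOTCH2 exons, had an FPKM of 2.711 and 2.976 on TCP and 2.921 and 3.101 on polymer X. Tags from the shared stretch can be assigned to either gene, so the level of NOTCH2 in its 5′ part is uncertain. In the deposited table, no transcript of another symbol overlapped any of the 10 genes on either strand. Overlap matters because overlapping genes on opposite strands share tags in such counts. Genes outside that table were not examined.

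The ligands, which sit on the signal-sending cell, moved in opposite directions. JAG1 (NM_000214, chr20:10618332-10654694, hg19), a ligand with a large cysteine-rich extracellular part, had an FPKM of 6.585 and 6.340 on TCP and of 3.966 and 3.444 on polymer X. JAG1 was low in both polymer X libraries without overlap. It fell with a log2 fold change of -0.67 (SE 0.08, 95% interval -0.84 to -0.49, limma adjusted p = 3.4e-05). JAG2 (NM_145159, chr14:105607318-105635161, hg19), the second Jagged ligand, had an FPKM of 3.892 and 4.031 on TCP and of 6.164 and 6.272 on polymer X. Here the polymer X libraries were the high ones, and again the groups did not overlap. JAG2 rose with a log2 fold change of 0.54 (SE 0.07, 95% interval 0.39 to 0.70, limma adjusted p = 5.6e-05). As a result, JAG1 exceeded JAG2 in FPKM on TCP, at a ratio of 1.69 and 1.57, and JAG2 exceeded JAG1 on polymer X, at a ratio of 1.55 and 1.82.

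DLL1, a Delta-like ligand, had the largest relative rise in FPKM of the 10 genes but stayed under the filter. Its FPKM was 0.134 and 0.081 on TCP and 0.962 and 0.798 on polymer X, from 17 and 12 tags and from 127 and 107 tags. Both polymer X libraries were above both TCP libraries. The tag rate on polymer X was 8.33 times that on TCP (exact 95% interval 5.65 to 12.7, counting error only). With no filter, limma gave DLL1 a log2 fold change of 0.76 (SE 0.06, limma adjusted p = 3.1e-04), below the fold change minimum on that scale. DLL4, the Delta-like ligand known from sprouting vessels, likewise had low values that were higher on polymer X, with an FPKM of 0.199 and 0.190 against 0.697 and 0.700. DLL3, a family member that acts mainly as an inhibitor within the cell, had 0.627 and 0.689 on TCP and 0.344 and 0.338 on polymer X. Neither passed the filter. Without it, the log2 fold change was 0.51 for DLL4 (SE 0.03, limma adjusted p = 2.2e-04) and -0.31 for DLL3 (SE 0.04, limma adjusted p = 0.002).

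The summed FPKM of the 5 canonical ligands hardly moved, with 11.4 and 11.3 on TCP and 12.1 and 11.6 on polymer X, a ratio of 1.04 between the means. Within that sum, the share of JAG1 went from 57.6% and 56.0% to 32.7% and 29.8%. The share of JAG2 went from 34.0% and 35.6% to 50.8% and 54.3%, and that of DLL1 from 1.17% and 0.715% to 7.93% and 6.91%. In each of these 3 shares the groups were separated by more than the spread between replicates.

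LFNG encodes lunatic fringe, a Golgi enzyme that extends O-fucose on the receptors and so changes how they respond to Delta-like and Jagged ligands. LFNG (NM_002304, chr7:2557497-2568063, hg19, plus strand) had an FPKM of 3.842 and 4.535 on TCP and of 1.611 and 1.525 on polymer X. Both polymer X libraries were low, and the gap to TCP was wider than the spread within either group. The mean FPKM went from 4.19 ± 0.490 (SD, n = 2) to 1.57 ± 0.0608 (SD, n = 2), 0.374 times the TCP level, with a log2 fold change of -1.01 (SE 0.09, 95% interval -1.21 to -0.81, limma adjusted p = 4.0e-06). The call as lower rests on a value at the fold change minimum. It was lost without TCP replicate 2 (-0.92), without polymer X replicate 2 (-0.99) and with median scaling (-0.98), where the fall itself kept an adjusted p from limma under 0.05. All 4 LFNG transcripts listed gave log2 fold changes between -1.01 and -0.97.

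The other fringe genes went the opposite way. RFNG (radical fringe) had an FPKM of 9.525 and 10.005 on TCP and 17.575 and 17.617 on polymer X, and it rose with a log2 fold change of 0.79 (SE 0.06, limma adjusted p = 1.7e-06). MFNG (manic fringe) had 0.630 and 0.539 on TCP and 1.456 and 1.554 on polymer X. It passed the filter only through the polymer X libraries, so its rise (log2 fold change 0.66) is a condition of its being tested. With a pseudocount of 0.1 it was called higher, at 1.23. RFNG exceeded LFNG in FPKM 2.48 and 2.21 times on TCP and 10.9 and 11.6 times on polymer X, and the share of LFNG in the summed fringe FPKM went from 27.4% and 30.1% to 7.80% and 7.37%. POFUT1, which adds the O-fucose that fringe enzymes extend, fell from an FPKM of 24.770 and 26.263 to 13.512 and 12.130, with a log2 fold change of -0.94.

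**Figure D4:**
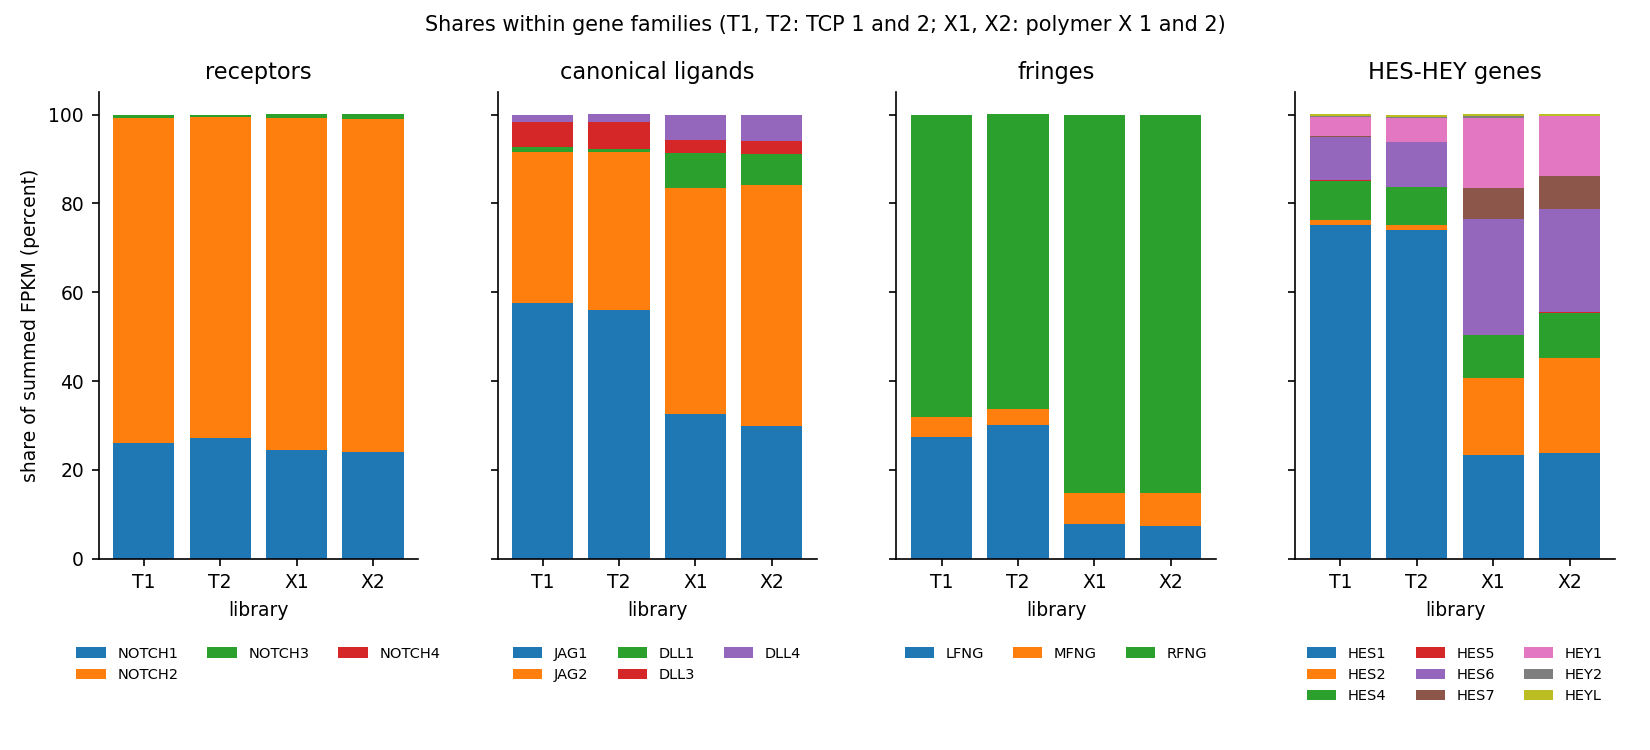
Share of each gene in the summed FPKM of its family, in percent, for the receptors, canonical ligands, fringe enzymes and HES-HEY genes in each library (T1 and T2, TCP replicates; X1 and X2, polymer X replicates). HES1 takes 75.1% and 74.1% of the HES-HEY sum on TCP and 23.4% and 23.8% on polymer X, and JAG1 takes 57.6% and 56.0% of the ligand sum on TCP and 32.7% and 29.8% on polymer X.

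HES1 encodes a basic helix-loop-helix repressor that is the most widely used readout of Notch activity and also responds to other pathways. HES1 (NM_005524, chr3:193853931-193856401, hg19, plus strand) had an FPKM of 33.878 and 31.888 in TCP replicates 1 and 2 and of 6.233 and 5.811 in polymer X replicates 1 and 2. The TCP libraries were high and the polymer X libraries low, and the lowest TCP value lay far above the highest polymer X value. The mean FPKM was 32.9 ± 1.41 (SD, n = 2) on TCP and 6.02 ± 0.298 (SD, n = 2) on polymer X, or 5.46 times as high on TCP. HES1 was called lower with a log2 fold change of -2.27 (SE 0.06, 95% interval -2.42 to -2.13, limma adjusted p = 4.5e-09). Only 81 of the 11964 tested genes fell by more on this scale.

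The 3 tested genes whose log2(FPKM + 1) values over the 4 libraries lay closest to those of HES1, by Euclidean distance, were PBK (0.103), NUDT6 (0.181) and CDC6 (0.185). PBK, a mitotic kinase, had an FPKM of 33.444 and 31.235 on TCP and 6.107 and 6.269 on polymer X. CDC6, which loads the replicative helicase, had 34.120 and 31.758 on TCP and 5.615 and 5.217 on polymer X. NUDT6, a Nudix family gene, had 32.895 and 29.305 on TCP and 6.919 and 5.842 on polymer X. NUDT6 overlaps FGF2 on the opposite strand, and FGF2 (NM_002006) had 38.782 and 38.121 on TCP and 7.926 and 7.185 on polymer X. Since tags were counted on both strands, those of NUDT6 and FGF2 cannot be told apart. All 3 thus shared both the level and the fall of HES1, with log2 fold changes of -2.21, -2.40 and -2.12 for PBK, CDC6 and NUDT6. With 4 libraries in 2 groups, closeness of this kind reflects little more than a shared pair of group levels.

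HEY1 encodes a related repressor of the HEY family. HEY1 (NM_012258, hg19 chromosome 8) had an FPKM of 1.971 and 2.328 on TCP and of 4.185 and 3.301 on polymer X. It was higher in both polymer X libraries, which differed from each other more than the TCP libraries did, and the groups did not overlap. HEY1 rose with a log2 fold change of 0.59 (SE 0.10, 95% interval 0.35 to 0.82, limma adjusted p = 5.8e-04), and its 3 transcripts gave values between 0.59 and 0.71. Quantile normalization reduced the log2 fold change of HEY1 to 0.37. HES1 exceeded HEY1 in FPKM 17.2 and 13.7 times on TCP and 1.49 and 1.76 times on polymer X.

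NRARP encodes an ankyrin-repeat protein that is induced by Notch and limits the pathway by acting on the RBPJ complex. NRARP (NM_001004354, chr9:140194083-140196703, hg19, minus strand) had an FPKM of 1.671 and 1.437 on TCP and of 3.273 and 2.526 on polymer X, from 168 to 343 tags per library. Polymer X replicate 1 was the highest and all polymer X values were above the TCP values. NRARP rose with a log2 fold change of 0.61 (SE 0.10, 95% interval 0.37 to 0.84, limma adjusted p = 4.8e-04), which quantile normalization reduced to 0.34. Among the 3 transcriptional targets, HES1 thus fell while HEY1 and NRARP rose.

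The other HES and HEY genes were also divided. HES2 had an FPKM of 0.520 and 0.461 on TCP and 4.628 and 5.200 on polymer X, and HES7, which drives oscillations in the embryonic segmentation clock, had 0.125 and 0.040 on TCP and 1.850 and 1.820 on polymer X. Both were called higher, with log2 fold changes of 1.99 and 1.39, but both passed the filter only through the polymer X libraries and had to differ to be tested. Under quantile normalization HES7 had a log2 fold change of 0.95 and was not called. The HES7 ratio of tag rates, with few tags on TCP, had an exact 95% counting interval of 12.7 to 46.9. HES6, which opposes HES1 in neural differentiation, rose from an FPKM of 4.316 and 4.320 to 6.970 and 5.636 (log2 fold change 0.45, SE 0.09, limma adjusted p = 0.0013). HES4 fell from an FPKM of 4.008 and 3.707 to 2.539 and 2.522 (log2 fold change -0.46, SE 0.07, limma adjusted p = 3.3e-04). HES5, HEY2 and HEYL had an FPKM of at most 0.195 in every library and did not pass the filter.

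Summed over the 9 HES and HEY genes, the FPKM was 45.1 and 43.0 on TCP and 26.6 and 24.4 on polymer X. HES1 held 75.1% and 74.1% of this sum on TCP and 23.4% and 23.8% on polymer X. On polymer X, HES6 held 26.2% and 23.1%, a range that included the shares of HES1, while HES2 (17.4% and 21.3%) and HEY1 (15.7% and 13.5%) held smaller shares than HES1. On TCP, the shares of these 3 genes had been 9.56% and 10.0% for HES6, 1.15% and 1.07% for HES2 and 4.37% and 5.41% for HEY1.

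The promoters of HES1 and of related genes are shown because these targets moved in different directions and because RBPJ, the DNA-binding partner of the Notch intracellular domain, recognizes the letters TGGGAA. The sequences are the 150 bases before the gene start on the gene's own strand, 5′ to 3′, from RefSeq GRCh38.p14. Of the 10 genes, 8 matched an entry of the promoter table, and the entries for DLL1 and HEY1 were not among them. Capitals mark TGGGAA or its reverse complement TTCCCA, searched on both strands in this window. HES1 is from chr3:194135998-194136147 (plus strand), HES4 from chr1:1000098-1000247 (minus strand), NRARP from chr9:137302272-137302421 (minus strand) and HES2 from chr1:6419920-6420069 (minus strand).
HES1: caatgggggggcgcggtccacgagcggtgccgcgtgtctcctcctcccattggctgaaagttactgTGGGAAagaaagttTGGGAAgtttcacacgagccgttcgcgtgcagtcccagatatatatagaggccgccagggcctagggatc
HES4: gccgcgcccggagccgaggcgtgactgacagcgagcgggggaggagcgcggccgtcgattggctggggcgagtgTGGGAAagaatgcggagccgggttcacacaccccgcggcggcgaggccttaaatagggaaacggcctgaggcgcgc
NRARP: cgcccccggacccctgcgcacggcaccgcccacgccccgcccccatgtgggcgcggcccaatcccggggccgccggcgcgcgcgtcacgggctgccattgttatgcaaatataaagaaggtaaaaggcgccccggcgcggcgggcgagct
HES2: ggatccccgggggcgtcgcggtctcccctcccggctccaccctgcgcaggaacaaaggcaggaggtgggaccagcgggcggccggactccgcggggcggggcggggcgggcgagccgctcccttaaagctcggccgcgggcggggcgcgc

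HES1 held 2 matches in the same orientation, which began 84 and 70 bases before the start, and HES4 held 1, which began 76 bases before it. HES1 and HES4 both fell on polymer X, while NRARP and HES2, with no match in this window, were higher there. Of the 8 genes with an entry, HES1 was the only gene with a match in the window, and NOTCH1, NOTCH2, JAG1 and LFNG, which also fell, held none. The genes printed were chosen after their values were seen. The letters occurred in the same window of 12.9% of the 35116 promoters of the table, and 1.16% held 2 or more matches. HES5 and HEYL also held 1 match each, at 80 and 99 bases, and these genes had values near 0 in all libraries. A match describes the sequence only, and binding was not measured.

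The wider pathway list held 53 further genes, of which 43 were tested. Of these, 20 rose and 12 fell, and limma called 4 higher and 0 lower, with 12 having a negative change at an unadjusted p under 0.05. Their median log2 fold change was 0.06, against -0.06 over all tested genes, and 9.30% were called in either direction, against 20.2%. The sign of this small median was not stable, since it was -0.02 without polymer X replicate 1 and 0.18 with quantile normalization. The 4 genes called higher were MIB2, DTX1, HES2 and HES7. Of the 43 tested genes, 4 (DTX1, HES2, HES7 and MFNG) passed the filter only through polymer X. MIB2, a ubiquitin ligase that promotes the endocytosis of ligands, had an FPKM of 10.207 and 10.383 on TCP and 24.236 and 24.116 on polymer X (log2 fold change 1.16, SE 0.06, limma adjusted p = 1.0e-07). DTX1, a Deltex protein that binds the intracellular part of the receptors, had 0.755 and 0.666 on TCP and 4.269 and 3.938 on polymer X (log2 fold change 1.58).

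Pathway genes below the fold change minimum that are named next were chosen after their values were seen. RBPJ, through which all receptors act on DNA, had an FPKM of 12.827 and 13.048 on TCP and 25.296 and 24.720 on polymer X and rose with a log2 fold change of 0.90 (SE 0.06, limma adjusted p = 4.9e-07). RBPJ therefore rose while HES1 fell, and under quantile normalization RBPJ was called higher, at 1.06. Of the 7 tested nuclear activators, 2 rose (RBPJ and KAT2B) and 4 fell, among them SNW1, from an FPKM of 36.855 and 36.662 to 22.684 and 22.214. MAML1, a Mastermind coactivator, had 10.824 and 10.808 on TCP and 8.479 and 8.648 on polymer X. All 9 receptor proteases were tested, of which 4 rose, 2 fell and 3 did not pass the test, with a median log2 fold change of 0.07. The ADAM proteases differed, with ADAM17 at an FPKM of 12.596 and 14.078 on TCP and 18.627 and 18.847 on polymer X, and ADAM10 at 41.524 and 42.130 against 36.032 and 35.692. ADAM17 and SNW1 each overlap a gene on the opposite strand (IAH1 and C14orf178), where tags were counted for both genes. Of the 6 corepressors, 2 rose and 2 fell.

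**Figure D5:**
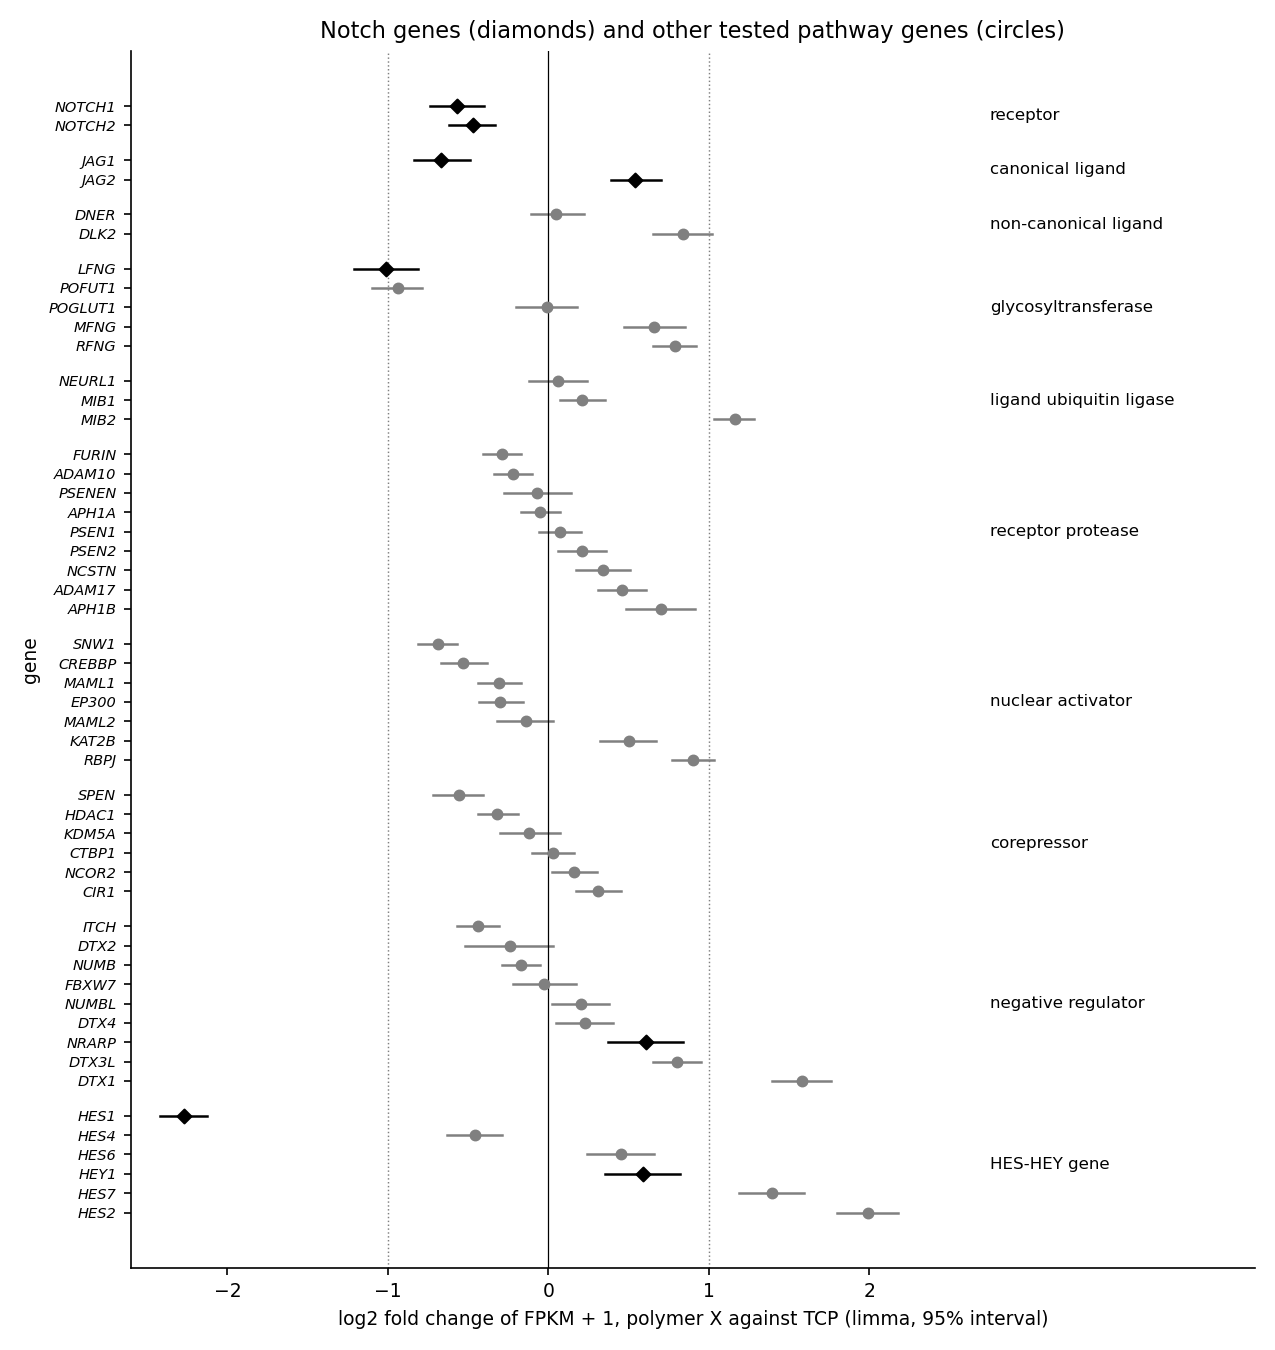
Log2 fold change of FPKM + 1, polymer X against TCP, with its 95% interval from limma, for the 8 tested Notch genes (black diamonds) and the 43 other tested pathway genes (grey circles), grouped by role; dotted lines mark the fold change minimum of 1 in each direction. HES1 at -2.27 and HES2 at 1.99 are the ends of the range, and both lie in the HES-HEY group.

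The label SKOV3 was set against marker genes. The epithelial and SKOV3 markers KRT8, KRT18, ERBB2 and PAX8 were present in all libraries, with KRT8 the most abundant of the list on TCP, at an FPKM of 261.591 and 268.917 against 145.820 and 143.049 on polymer X. ERBB2, which is amplified in this line, had 198.223 and 205.509 on TCP and was the most abundant on polymer X, at 913.371 and 860.431. The 8 markers of this list summed to an FPKM of 640.5 and 654.2 on TCP and 1257.5 and 1206.8 on polymer X. ERBB2 and PAX8 were called higher, whereas KRT8 (log2 fold change -0.87), KRT7 (-0.76) and KRT18 (-0.44) fell. CDKN2A, absent from SKOV3, was at 0 in 3 libraries and at 0.044 in the other. EPCAM had 0.168 and 0.104 on TCP and 1.390 and 1.325 on polymer X and was called higher, but it passed the filter only through polymer X. KRT19 had 0.338 and 0.441 on TCP and 0.734 and 0.655 on polymer X, and WT1 was at most 0.421. Neither KRT19 nor WT1 passed the filter. The 4 leukocyte markers summed to 0.160 and 0.096 on TCP and 0.823 and 0.962 on polymer X, with PTPRC the most abundant on polymer X and CD3E at 0 throughout. The 4 endothelial markers summed to 0.506 and 0.470 on TCP and 0.835 and 0.603 on polymer X, with KDR the most abundant on TCP. PECAM1 was at 0 on TCP and, at 0.573 and 0.458, was the most abundant on polymer X. The 4 fibroblast markers summed to 16.8 and 17.3 on TCP and 57.0 and 52.2 on polymer X. COL1A2 was the most abundant and was called higher, as was DCN, which had 0.025 and 0 on TCP and 7.257 and 6.197 on polymer X, whereas COL1A1 fell and PDGFRB stayed near 0. DCN passed the filter only through polymer X. In these bulk libraries a change in the share of cells and a change in RNA per cell cannot be told apart, and the part of the marker changes in the values of the Notch genes was not tested.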

How the data were processed

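The authors deposited FPKM values for 50078 RefSeq transcripts of the hg19 build, made with HOMER from tags on exons of both strands. The submitters' processing notes name STAR 2.4.0, HOMER and DESeq, and the HOMER version is not given in the sources used here. Tag numbers per library were recovered from the smallest steps between the deposited FPKM values, and 100% of the low values examined came to whole tags with a tolerance of 0.1. Even tag numbers made up 51.8% to 57.3%. For a transcript of 2000 bases, 3 tags correspond to an FPKM of 0.0334 to 0.0391.

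Each symbol was represented by its transcript of highest mean FPKM, and 10500 symbols had more than 1 transcript. The test was limma 3.58.1 (R 4.3.3) on log2(FPKM + 1), without a block, using the mean-variance trend and Benjamini-Hochberg adjustment over all 11964 tested genes. Since 0.333 is the smallest two-sided p of an exact permutation test with 2 libraries a group, every adjusted p depends on spread shared across genes. The procedure was tested on simulated data. Shares, ratios and exact intervals were computed in Python 3.11.15 with scipy 1.17.1, and figures with matplotlib 3.10.9. The mean chi-square per gene between replicates, from tags, was 5.43 on TCP and 6.42 on polymer X, above counting error.

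Named were the 10 genes, pathway genes that were called, their NOTCH, JAG, DLL, HES, HEY and fringe paralogs, and the 3 tested genes closest to the called member with the largest change in each direction, which gave HES1 alone. Other names were chosen after their values were seen. A further marker gene is not reported here. The members and lists were chosen with earlier results of these data known. Alternatives were a pseudocount of 0.1, no filter, a minimum mean FPKM of 5, quantile normalization, median scaling, a replicate block, the sum of transcripts, the longest transcript, no mean-variance trend, no fold change minimum and each library left out. Removal of the trend with transcript length, the NOTCH2 short transcript in place of the long one, and the comparison of transcripts sharing a 5′ end (short at most 0.5 of the long length, mean FPKM of at least 1 and 5) were added after seeing the data.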

Additional observations from a re-analysis of the deposited data

How the results depend on the processing

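All 102 recomputed log2 fold changes of the 8 tested Notch genes kept their direction and an adjusted p from limma under 0.05. HES1 ranged from -2.43 to -2.16, and LFNG from -1.36 to -0.92. NRARP ranged from 0.34 to 0.85, HEY1 from 0.37 to 0.77 and JAG2 from 0.47 to 0.64. NOTCH2 ranged from -1.16, with its short transcript, to -0.34, with quantile normalization.

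Without a fold change minimum, 4477 genes rose and 5212 fell, with 3 and 5 among the Notch genes and 20 and 12 among the other pathway genes. At a mean FPKM of at least 5, fewer genes were tested, and 702 genes were called higher and 960 lower. Of the other pathway genes 1 was called higher there, and of the Notch genes 1 was called lower, LFNG being left out. The number of Notch genes called lower was also 1 with median scaling and with the length trend removed, as LFNG came to -0.98 and -0.97. With the NOTCH2 short transcript, chosen after seeing the data, it was 3. With transcripts summed, 1 other pathway gene was called lower (POFUT1) and 5 were called higher, DTX3 being added. DTX3 passed the filter there only through polymer X and had to differ to be tested. With each library left out, which leaves 1 library in a group that is assumed to vary like the other group, the Notch genes called lower ranged from 1 to 2. The other pathway genes called higher ranged from 1 to 4, and those called lower from 0 to 1. Without either polymer X library, HES2, HES7 and DTX1 no longer passed the filter, and POFUT1 was called lower (-1.01) without polymer X replicate 1.

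With a replicate block, 1285 genes were called higher and 1131 lower, with 0 and 2 among the Notch genes and 4 and 0 among the other pathway genes. Across genes, the deviations of libraries with the same number had a correlation of 0.0927, and no pairing was assumed. Depth limits NOTCH3, and DLL1 on TCP, which had at most 54 and 17 tags there. Both groups hold 2 libraries, and 1 cell line was studied.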

Other observations

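Further genes of the pathway list lay under the filter or below the fold change minimum. DTX3, a Deltex family member, had an FPKM of 0.038 and 0.022 on TCP and 0.697 and 0.673 on polymer X, and MAML3, a Mastermind coactivator, had 0.037 and 0.091 on TCP and 0.399 and 0.382 on polymer X. Both were higher in each polymer X library than in each TCP library, at low levels and under the filter. With no filter, the log2 fold change was 0.71 for DTX3 (SE 0.03, limma adjusted p = 7.8e-05) and 0.39 for MAML3 (SE 0.04, limma adjusted p = 6.4e-04). With the transcripts of a gene summed, DTX3 passed the filter and was called higher, at 1.47. It passed only through polymer X, however, and had to differ to be tested. DLK2, a non-canonical ligand that is thought to restrain Notch signaling, rose from an FPKM of 3.618 and 4.194 to 7.441 and 8.091 (log2 fold change 0.84, standard error 0.08, adjusted p = 9.4e-06 from limma), while its paralog DLK1 was listed at 0 in all 4 libraries. DTX3L, another Deltex protein, had 6.094 and 6.300 on TCP and 11.940 and 11.172 on polymer X (log2 fold change 0.80, standard error 0.07, adjusted p = 2.9e-06 from limma). DLK2, DTX3L and MAML3 overlap ABCC10, PARP9 and MGST2 on the opposite strand, where tags were counted for both genes. These genes of the list, and NUMB and ITCH, were chosen after their values were seen.

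NUMB, which antagonizes Notch by directing receptors to endosomes, had an FPKM of 49.124 and 51.017 on TCP and 43.852 and 44.819 on polymer X. ITCH, a ubiquitin ligase for the receptors, had 15.993 and 16.118 on TCP and 11.593 and 11.595 on polymer X. Both fell, whereas NRARP, DTX1, DTX3L, DTX4 and NUMBL, which share the role of negative regulators in the list, rose. DTX4 overlaps MPEG1 on the opposite strand. Of the 9 tested genes with this role, 5 rose, 2 fell and 2 did not pass the test. DTX1 passed the filter only through polymer X and had to differ to be tested.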
